A study of Mus musculus with 12 samples.

Results

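The genes described here are the matrix metalloproteinases (Mmp), the membrane-anchored ADAM proteins (Adam), the secreted ADAMTS proteases (Adamts) and the tissue inhibitors of metalloproteinases (Timp), chosen by their gene symbols. Of the 24346 genes with values, 79 carried such a symbol: 23 Mmp, 33 Adam, 19 Adamts and 4 Timp genes. The series holds 12 RNA-seq libraries of 2 fibroblast lines of the mouse, 3 in each of 4 groups: NIH-3T3 given SHHN, NIH-3T3 given vehicle (control), MLg given SHHN and MLg given vehicle (control). NIH-3T3 comes from NIH/Swiss embryos and MLg from the lung of newborn ddY mice. SHHN is a recombinant form of the Hedgehog ligand SHH and was given at 1 µg/ml for 48 h in medium with 0.5% serum, to cells at 85% confluence, and the controls shared that low-serum medium and time. Each line stands for 1 cell line of its tissue, and separate cultures are not stated for the replicates, so every p-value measures only the spread between these libraries.

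Metalloproteinases use a zinc ion to cut proteins, and most are made as inactive precursors. Matrix metalloproteinases and ADAMTS proteases cut collagens, proteoglycans and other matrix proteins, while ADAM proteases mostly release the outer parts of membrane proteins. TIMP proteins bind the active site of these enzymes. Fibroblasts are a main source of both the enzymes and their inhibitors in connective tissue and lung, and an RNA level says nothing about how much of an enzyme is active.

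Values are FPKM, in which fragments are divided by transcript length and by library size, so levels can be set against each other between genes. A fold change is a difference of log2(FPKM + 0.5), which understates the change of genes with low values. A gene was called when its Benjamini-Hochberg adjusted p, from limma over all 12379 genes tested, was below 0.05. Genes entered the test with at least 0.5 FPKM in at least 3 libraries, which 36 of the 79 members had (11 Adam, 11 Adamts, 10 Mmp and 4 Timp genes). Among the 43 others, 19 were listed at 0 in every library, 15 of them Adam genes, most of which are known from testis. The members nearest to the filter had a third-highest value of 0.626 FPKM (Mmp15) and 0.750 FPKM (Adam8) inside it, and of 0.413 FPKM (Adamts13) and 0.246 FPKM (Adamts16) outside it. Of the 36, 5 reached the minimum in 1 line only: Adam1a and Adam5 in NIH-3T3, and Mmp3, Mmp15 and Timp4 in MLg. Timp4 entered through the MLg SHHN libraries alone, and Mmp3 through the MLg control libraries and 1 MLg SHHN library. Mmp17 entered through the MLg SHHN libraries, 1 NIH-3T3 SHHN library and 1 MLg control library. Counts over the 36 are therefore descriptions and not evidence about the 79.

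The Hedgehog target Gli1 stood at 139 to 151 FPKM with SHHN and at 0.0840 to 0.179 FPKM in control libraries of NIH-3T3, and at 113 to 128 FPKM with SHHN and 0.414 to 0.906 FPKM in control libraries of MLg. The 8 fibroblast markers summed to 8391 to 10353 FPKM with SHHN and 13014 to 14352 FPKM in control of NIH-3T3, and to 7792 to 9271 FPKM with SHHN and 8669 to 9909 FPKM in control of MLg. The 5 epithelial markers summed to at most 0.620 FPKM and the 5 leukocyte markers to at most 1.85 FPKM in any library, and Epcam, Krt18 and Adgre1 were at 0 in all. The 4 endothelial markers summed to 6.73 to 25.3 FPKM with SHHN and 5.75 to 7.93 FPKM in control of NIH-3T3, and to 5.78 to 6.51 FPKM with SHHN and 0.101 to 0.154 FPKM in control of MLg. These sums came from Cdh5 and Tek, while Pecam1 and Kdr were at most 0.137 FPKM in all libraries. The part of these movements in the results was not tested, and in bulk RNA fewer cells of a type and less RNA per cell cannot be told apart.

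**Figure D1:**
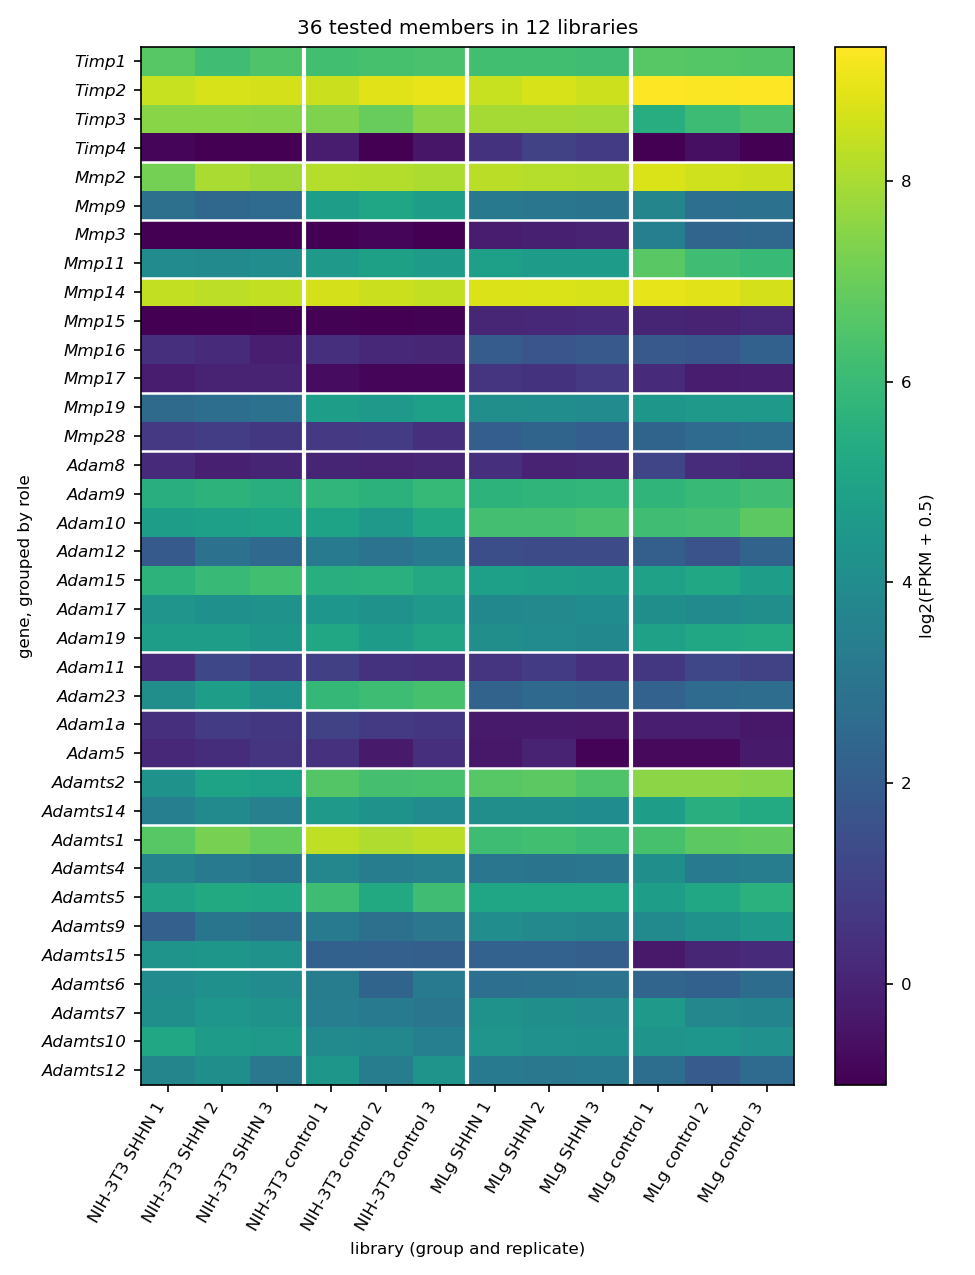
Levels of the 36 tested members in each of the 12 libraries, as log2(FPKM + 0.5) in colour, with genes in rows grouped by role and libraries in columns by group. Mmp14, Mmp2 and Timp2 are bright in every library, while Mmp3 and Mmp15 are dark in all 6 NIH-3T3 libraries.

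A block of 10 matrix metalloproteinase genes lies side by side at chr9:7272514-7699585 (mm10), and 9 of the 10 stayed below the filter. The other gene was Mmp3, a stromelysin that cuts proteoglycans and fibronectin and activates other metalloproteinases. Upstream sequences are shown because the 10 genes share this position and most of them a motif before the start. In the RefSeq promoter windows (GRCm38.p6, 250 bases before to 50 after the start), the AP-1 motif TGANTCA, which reads the same on both strands at its fixed letters, was found in 8 of the 12 windows of the block, belonging to 8 of its 10 genes. It was found in 7.81% of all 32851 promoter windows of the table. The search left the middle base open: it was A in Mmp20 (TGAATCA), C in Mmp13 (TGACTCA) and G in the other genes of the block with a match. The windows of Mmp8 and Mmp27 held no such letters, and neither did a further window each of Mmp12 and Mmp7. The sequences of Mmp3, Mmp10, Mmp12, Mmp13, Mmp1a and Mmp7 run from base -110 to base -21 before the start, 5′ to 3′, with the motif in capitals. All 6 genes lie on the plus strand.
Mmp3, chr9:7445712-7445801: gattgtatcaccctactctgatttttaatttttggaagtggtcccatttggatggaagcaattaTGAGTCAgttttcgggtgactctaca
Mmp10, chr9:7502232-7502321: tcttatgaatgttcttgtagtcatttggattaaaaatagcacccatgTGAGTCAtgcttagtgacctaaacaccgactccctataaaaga
Mmp12, chr9:7347264-7347353: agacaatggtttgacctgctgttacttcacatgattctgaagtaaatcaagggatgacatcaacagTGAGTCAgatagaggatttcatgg
Mmp13, chr9:7272404-7272493: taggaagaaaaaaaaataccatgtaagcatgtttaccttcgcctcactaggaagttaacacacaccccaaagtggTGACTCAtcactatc
Mmp1a, chr9:7464031-7464120: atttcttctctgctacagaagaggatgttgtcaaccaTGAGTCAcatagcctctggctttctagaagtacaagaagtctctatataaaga
Mmp7, chr9:7691980-7692069: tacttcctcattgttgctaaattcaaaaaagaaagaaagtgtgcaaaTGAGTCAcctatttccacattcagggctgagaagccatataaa

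Among the 21 tested members with a promoter in the table (23 windows), the AP-1 letters occurred in 2 windows (8.7%, near the 7.81% of all windows). These were a window each of Mmp3 and of Adam19, a transmembrane protease also known as meltrin beta. The other windows of Adam19 held no such letters. Both genes fell with SHHN in MLg, as did Mmp11, Adamts1, Adamts2, Adamts14, Timp1 and Timp2, whose windows held no such letters. A link to the motif was not tested. The Adam19 window from base -150 to base -61 is shown for comparison and lies on the plus strand of mm10.
Adam19, chr11:46055834-46055923: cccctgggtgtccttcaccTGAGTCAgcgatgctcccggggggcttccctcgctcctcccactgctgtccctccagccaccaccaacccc
The Gli motif GACCACCCA, searched on both strands, was in none of the 54 windows of the 49 members matched, and in 0.253% of all windows. A match is a description of letters and not a measured binding site, and no match says only that these letters are not in the window.

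Mmp3 was almost silent in MLg with SHHN. It had 0.357, 0.431 and 0.521 FPKM in MLg SHHN libraries, against 10.5, 4.67 and 4.97 FPKM in MLg control libraries. The groups did not overlap, and control replicate 1 was about as high as the other controls together. The log2 fold change was −2.86 (SE 0.23, adjusted p = 1.05e-06, and 1.15e-05 with no filter on low values). The gene entered the test through these controls, where it is high, and 1 SHHN library, so the filtered call is no support for a change. In NIH-3T3, Mmp3 was listed at 0 in all SHHN libraries and in all control libraries but replicate 2, which had 0.0483 FPKM. The other 9 genes of the chromosome 9 block summed to 0.390, 0.133 and 0.239 FPKM in MLg SHHN libraries, against 0.995, 0.339 and 0.593 FPKM in MLg control libraries, and to 0 in every NIH-3T3 library. These sums overlap between the MLg groups, and their genes were too low to be tested.

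Across the 36 tested members, 15 were called in NIH-3T3 (6 higher and 9 lower, 41.7%), where 31.4% of all tested genes were called, 16.6% higher and 14.8% lower. In MLg, 13 were called (4 higher and 9 lower, 36.1%), against 22.8% of all tested genes, 12.8% higher and 10.0% lower. These MLg calls include Timp4 and Mmp17 (higher) and Mmp3 (lower), which passed the filter mainly through the group where they are high. Mmp17 is also among the 6 called higher in NIH-3T3. The libraries of the groups did not overlap for 6 higher and 11 lower members in NIH-3T3 (21.6% and 18.8% of all tested genes) and for 6 higher and 13 lower members in MLg (21.4% and 20.0% of all tested genes). The median log2 fold change of the 36 was −0.16 in NIH-3T3 and −0.18 in MLg, beside −0.012 and −0.0026 over all tested genes. Between the 2 lines, Adamts1, Adamts2, Adamts14, Mmp11 and Mmp19 were lower in both, and Adamts15 and Mmp17 were higher in both. Shares over all tested genes were not computed for joint calls, whether alike, opposite or in neither line. No member was called in opposite directions, and 15 were called in neither line. Adamts12 was an exception when control replicate 2 of NIH-3T3 was left out: it was then lower in NIH-3T3 (−0.74, adjusted p = 0.0412) and higher in MLg (0.79, 0.0226), with a difference of −1.53 (0.00990). The difference of the effects, NIH-3T3 minus MLg, passed for 12 members, 5 above 0 and 7 below 0, where 7.48% and 5.95% of all tested genes did. The count of lower members in NIH-3T3 was 6 when SHHN replicate 1 or control replicate 1 was left out, and 12 when control replicate 2 was.

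**Figure D2:**
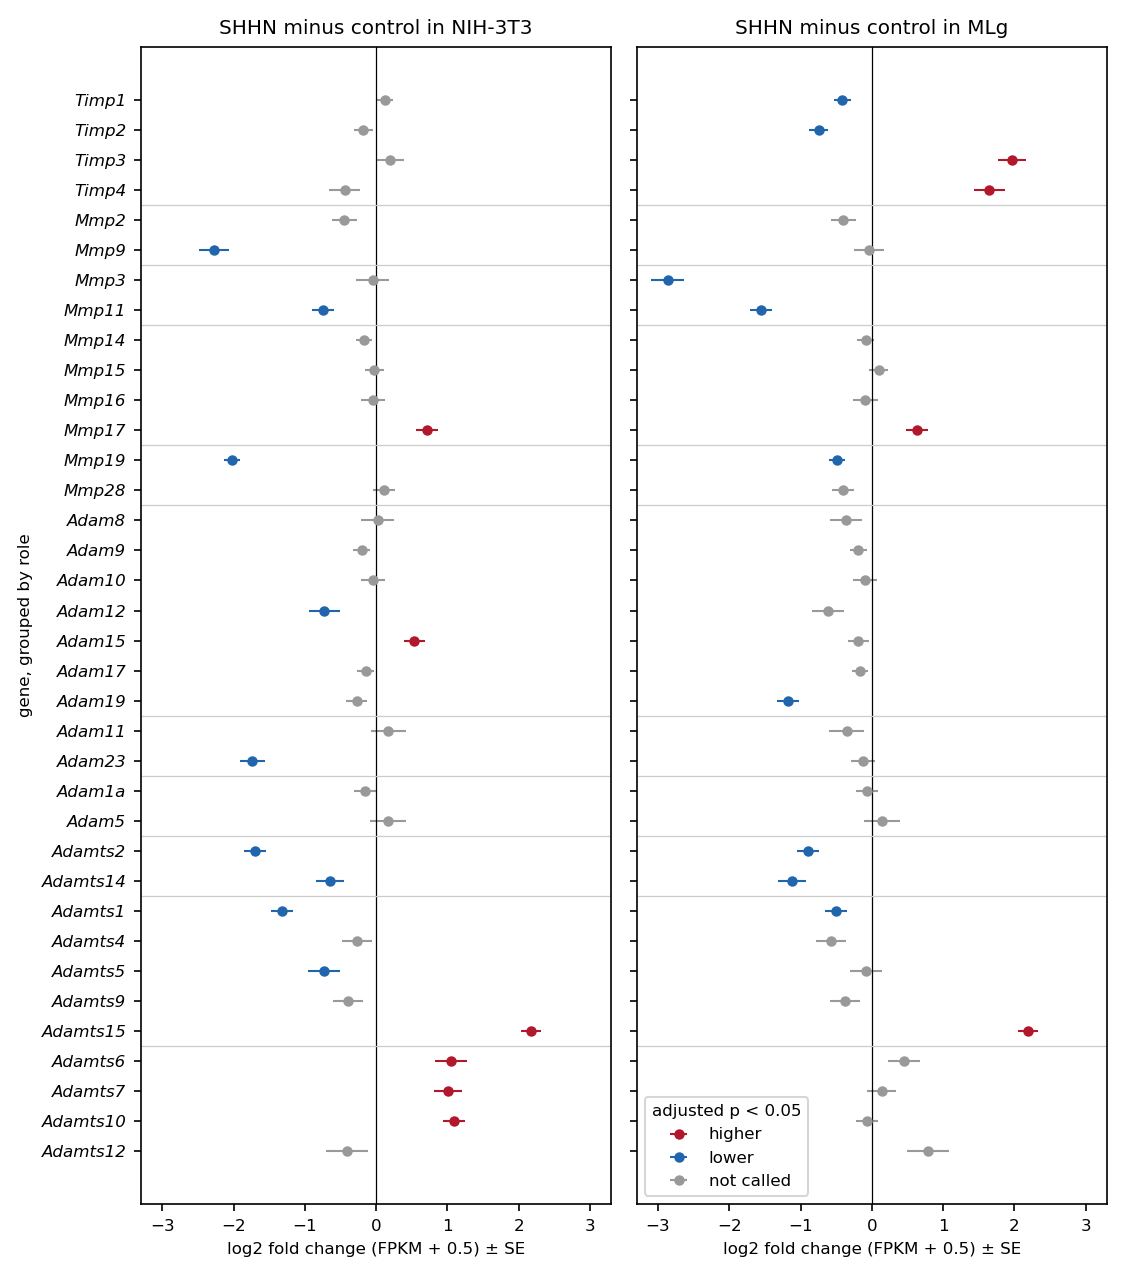
Log2 fold change (FPKM + 0.5) of SHHN minus control with its standard error for the 36 tested members, in NIH-3T3 (left) and MLg (right), coloured by the limma call. Of the 4 Timp genes, 2 are called higher and 2 lower in MLg, where 22.8% of all tested genes were called. The difference between lines passed for Timp3 and Timp4 and not for Timp1 or Timp2. Timp4 was tested only through the MLg SHHN libraries, where it is high, so its calls are no support. With 0.5 FPKM added, Adamts15 has nearly the same value in both lines.

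Among the inhibitors, Timp3 rose and Timp1 and Timp2 fell in MLg. Timp3 (chr10:86300372-86349506, mm10), which is held in the matrix and also inhibits several ADAM and ADAMTS proteases, had 245, 246 and 239 FPKM in MLg SHHN libraries, against 43.2, 67.1 and 82.4 FPKM in MLg control libraries. The groups were far apart, and the SHHN libraries varied less than the controls. The log2 fold change was 1.96 (SE 0.20, adjusted p = 5.97e-06). In NIH-3T3, Timp3 had 178, 179 and 174 FPKM with SHHN, against 161, 123 and 184 FPKM in control, and these groups overlapped (0.20, SE 0.20, adjusted p = 0.476). The effects in the 2 lines differed, with a difference of −1.76 for NIH-3T3 minus MLg (SE 0.28, adjusted p = 9.69e-04). The opposite-strand gene Syn3 shares annotated exon positions with Timp3 and was at most 1.28 FPKM in any library.

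Timp2, the inhibitor that also takes part in activating the MMP2 precursor, went the other way in MLg. It had 357, 413 and 374 FPKM in MLg SHHN libraries, against 644, 624 and 641 FPKM in MLg control libraries, with no overlap (−0.74, SE 0.13, adjusted p = 0.00100). In NIH-3T3 it had 355, 418 and 408 FPKM with SHHN, against 367, 464 and 512 FPKM in control, which overlapped (−0.18, SE 0.13, adjusted p = 0.350). Its difference between the lines did not pass (0.56, SE 0.19, adjusted p = 0.0670), with a 95% interval of 0.16 to 0.97. That difference passed when control replicate 3 of NIH-3T3 was left out (0.0453), with median-ratio scaling (0.0416) and with quantile normalization (0.0184).

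Timp1, a broad inhibitor and also a secreted growth signal, had 73.7, 72.8 and 71.5 FPKM in MLg SHHN libraries, against 101, 97.4 and 92.9 FPKM in MLg control libraries. Groups did not overlap, but the change was small (−0.42, SE 0.12, adjusted p = 0.0208). The call ended without MLg SHHN replicate 1 (0.0531), 2 (0.0588) or 3 (0.0713) and without MLg control replicate 1 (0.0689) or 2 (0.0602). In NIH-3T3, Timp1 had 98.7, 71.0 and 88.6 FPKM with SHHN, against 73.2, 79.6 and 83.1 FPKM in control, with overlap (0.12, SE 0.12, adjusted p = 0.488). The difference between the lines was 0.53 (SE 0.17, adjusted p = 0.0504). It passed when SHHN replicate 2 (0.0143) or control replicate 2 (0.0497) of NIH-3T3 was left out, with quantile normalization (0.0480) and with a pseudocount of 1 (0.0498).

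Timp4, the rarest of the 4 inhibitors, had 0.911, 1.55 and 1.29 FPKM in MLg SHHN libraries, against 0, 0.171 and 0 FPKM in MLg control libraries. The log2 fold change was 1.65 (SE 0.22). Because the gene was tested only through the group where it is high, its call is no support for a change; with no filter on low values the adjusted p was 2.33e-04. In NIH-3T3 it was near 0 everywhere, with 0.0555, 0 and 0 FPKM with SHHN, against 0.389, 0 and 0.282 FPKM in control. Its change there did not pass (−0.44, SE 0.22, adjusted p = 0.150, and 0.0186 without NIH-3T3 control replicate 2). The difference between the lines was −2.09 (SE 0.31), with an adjusted p of 0.00155 with no filter. In MLg with SHHN, Timp3 averaged 244 ± 3.71 FPKM and Timp4 1.25 ± 0.322 FPKM (SD, n = 3 each).

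**Figure D3:**
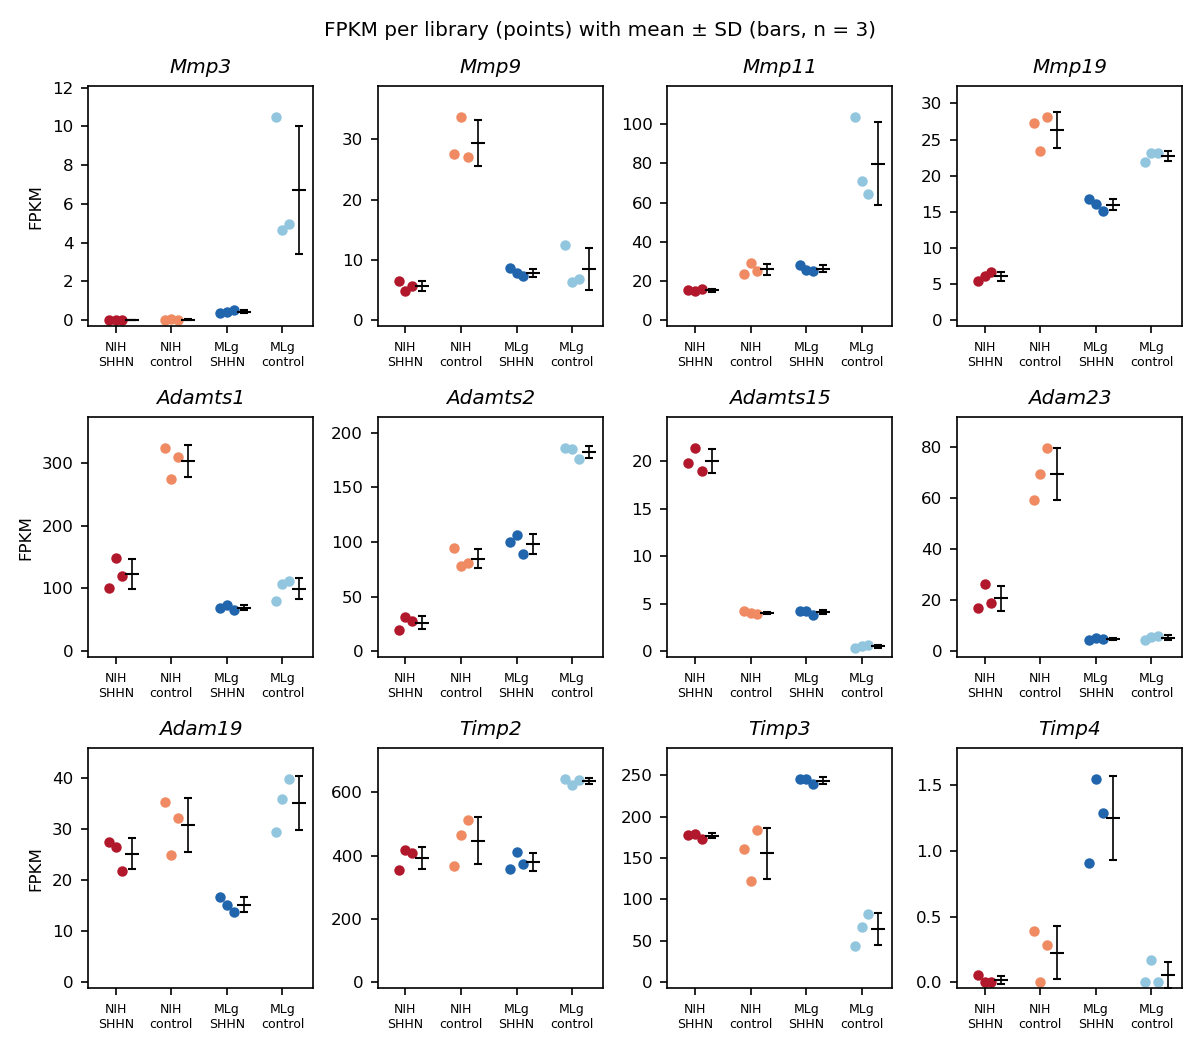
FPKM of 12 named members in each library (points), with the mean and SD of the 3 libraries of a group (bars), for NIH-3T3 SHHN, NIH-3T3 control, MLg SHHN and MLg control from left to right. Mmp9 separates the groups of NIH-3T3 and not those of MLg, and Mmp3 and Timp3 do so in MLg.

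Of the gelatinases, which cut denatured collagen and basement membrane collagen, Mmp9 fell in NIH-3T3 and Mmp2 was not called in either line. Mmp9 (chr2:164940780-164955850, mm10) had 6.57, 4.90 and 5.62 FPKM in NIH-3T3 SHHN libraries, against 27.5, 33.8 and 27.0 FPKM in NIH-3T3 control libraries. It fell there with no overlap (−2.27, SE 0.21, adjusted p = 2.02e-06). In MLg it had 8.62, 7.76 and 7.27 FPKM with SHHN, against 12.5, 6.28 and 6.77 FPKM in control, where the groups overlapped (−0.045, SE 0.21, adjusted p = 0.915). The effects differed by −2.23 for NIH-3T3 minus MLg (SE 0.30, adjusted p = 3.15e-04). Mmp2 was far more abundant, with 211 ± 59.1 FPKM (SD, n = 3) with SHHN and 280 ± 13.8 FPKM in control of NIH-3T3, and 296 ± 13.0 FPKM with SHHN and 392 ± 38.8 FPKM in control of MLg. Neither change of Mmp2 passed (adjusted p = 0.0685 in NIH-3T3 and 0.128 in MLg), although its groups did not overlap in either line. Without NIH-3T3 SHHN replicate 2 (145 to 259 FPKM across that group), the NIH-3T3 change of Mmp2 was −0.61 (adjusted p = 0.0210), and the MLg change passed when SHHN replicate 1 of NIH-3T3 was left out (0.0207) and with 6 libraries per fit (0.0283).

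Mmp11 and Mmp19 fell in both lines, each more in one of them. Mmp11, a stromelysin activated inside the cell by furin, had 15.2, 14.7 and 16.1 FPKM in NIH-3T3 SHHN libraries, against 23.7, 29.0 and 25.2 FPKM in NIH-3T3 control libraries (−0.74, SE 0.15, adjusted p = 0.00233). MLg libraries had 28.1, 25.8 and 24.9 FPKM with SHHN, against 104, 71.2 and 64.2 FPKM in control (−1.55, SE 0.15, adjusted p = 5.67e-06). The groups were separate in both lines. The difference of 0.81 for NIH-3T3 minus MLg passed (adjusted p = 0.0253). It did not when SHHN replicate 3 (0.0530) or control replicate 1 (0.0502) or 3 (0.0544) of NIH-3T3, or SHHN replicate 2 (0.0555) or 3 (0.0674) of MLg, was left out. An opposite-strand neighbour that shares exon positions with Mmp11, Chchd10, also fell in MLg, to 0.658, 1.34 and 0.804 FPKM with SHHN, against 2.56, 3.62 and 1.26 FPKM in control (adjusted p = 0.0298). Whether the counting used strand is not given in the sources used here.

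Mmp19 (chr10:128790910-128800824, mm10), an enzyme of basement membrane and matrix turnover, had 5.46, 6.18 and 6.70 FPKM in NIH-3T3 SHHN libraries, against 27.3, 23.4 and 28.2 FPKM in NIH-3T3 control libraries (−2.02, SE 0.11, adjusted p = 1.92e-08). Levels in MLg were 16.8, 16.1 and 15.1 FPKM with SHHN, against 21.9, 23.1 and 23.1 FPKM in control (−0.49, SE 0.11, adjusted p = 0.00549). All SHHN libraries were below all controls in each line, and the difference of −1.53 (SE 0.16, adjusted p = 4.07e-05) had the smallest p of any member. Tmem198b, on the opposite strand with shared exon positions, was at 18.8 to 28.7 FPKM in all libraries and rose in NIH-3T3 (0.38, adjusted p = 0.0276).

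Of the 4 tested membrane-type metalloproteinases, 1 was called in each line, Mmp17 (25%, beside 31.4% of all tested genes in NIH-3T3 and 22.8% in MLg). Mmp14, which cuts collagen at the cell surface and activates the MMP2 precursor, was the most abundant Mmp gene, at 325 ± 11.7 FPKM (SD, n = 3) with SHHN and 368 ± 35.8 FPKM in control of NIH-3T3, and 431 ± 13.1 FPKM with SHHN and 460 ± 47.5 FPKM in control of MLg. Neither change passed, with 95% intervals of −0.42 to 0.076 in NIH-3T3 and −0.34 to 0.16 in MLg. Mmp17, which is anchored by a lipid, rose in both lines at low levels. It had 0.363, 0.514 and 0.494 FPKM in NIH-3T3 SHHN libraries, against 0.135, 0.0688 and 0.0523 FPKM in NIH-3T3 control libraries (0.71, SE 0.15, adjusted p = 0.00317), and 1.03, 0.918 and 1.16 FPKM in MLg SHHN libraries, against 0.674, 0.387 and 0.415 FPKM in MLg control libraries (0.64, SE 0.15, adjusted p = 0.00794). Mmp17 passed the filter mainly through SHHN libraries, where it is high, so its calls are no support for a change. Over the alternatives that tested it, no filter among them, its adjusted p was at most 0.0170 in NIH-3T3 and 0.0416 in MLg. Mmp15 and Mmp16, both with a membrane-spanning segment, and Mmp28, a secreted enzyme, were not called in either line. Mmp28 had a change of −0.40 in MLg (adjusted p = 0.0802), which passed when control replicate 1 was left out (0.0476) and with quantile normalization (0.0298).

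Among the ADAMTS proteases, both expressed procollagen N-proteinases fell in both lines, where 14.8% (NIH-3T3) and 10.0% (MLg) of all tested genes were called lower. Adamts2, which trims the amino ends of fibrillar procollagens, had 19.5, 31.5 and 27.8 FPKM in NIH-3T3 SHHN libraries, against 94.9, 78.4 and 80.6 FPKM in NIH-3T3 control libraries (−1.69, SE 0.15, adjusted p = 1.71e-06). MLg levels of Adamts2 were 100.1, 107 and 88.5 FPKM with SHHN, against 186, 185 and 176 FPKM in control (−0.89, SE 0.15, adjusted p = 7.09e-04). The libraries were separate in each line. The difference of −0.80 (adjusted p = 0.0268) did not pass with the replicate block (0.0530). It also failed when control replicate 1 of NIH-3T3 (0.0540), or SHHN replicate 1 (0.0598) or 2 (0.0673) or control replicate 2 (0.0554) of MLg, was left out.

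Adamts14, which has the same task, had 16.7, 16.6 and 16.0 FPKM in MLg SHHN libraries, against 26.9, 44.4 and 39.4 FPKM in MLg control libraries (−1.12, SE 0.19, adjusted p = 7.28e-04). In NIH-3T3 it had 10.5, 14.6 and 10.8 FPKM with SHHN, against 23.4, 18.6 and 15.2 FPKM in control, a narrow gap (−0.64, SE 0.19, adjusted p = 0.0217). The NIH-3T3 call was lost when SHHN replicate 1 (0.0811) or 3 (0.0691) or control replicate 1 (0.0872) was left out, and with 6 libraries per fit (0.0691). Adamts3, the third enzyme of this kind, was at most 0.01 FPKM. Of the type I collagen genes that encode their substrates, Col1a2 (−0.80, adjusted p = 0.00156) and Col1a1 (−0.54, adjusted p = 0.0491) fell in NIH-3T3, and neither was called in MLg (adjusted p = 0.272 for Col1a2 and 0.972 for Col1a1).

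Of the 5 tested proteoglycan-cutting ADAMTS genes, 1 rose and 2 fell in NIH-3T3 (60%, beside 31.4% of all tested genes). In MLg, 1 rose and 1 fell (40%, beside 22.8%). Adamts4 and Adamts9 were called in neither line, with changes of −0.26 and −0.39 in NIH-3T3 (adjusted p = 0.381 and 0.181) and of −0.57 and −0.38 in MLg (adjusted p = 0.0718 and 0.237). The MLg change of Adamts4 passed with the replicate block (0.0408), with quantile normalization (0.0420) and when control replicate 2 of MLg was left out (0.0376). Adamts15 (chr9:30899155-30922452, mm10), which cuts aggrecan and versican, had 19.8, 21.4 and 18.9 FPKM in NIH-3T3 SHHN libraries, against 4.18, 4.01 and 3.90 FPKM in NIH-3T3 control libraries (2.18, SE 0.14, adjusted p = 6.18e-08). In MLg it had 4.27, 4.21 and 3.84 FPKM with SHHN, against 0.323, 0.565 and 0.677 FPKM in control (2.19, SE 0.14, adjusted p = 1.86e-07). No library of one group overlapped the other in either line. The difference of the effects was −0.0084, with a 95% interval of −0.44 to 0.42. The MLg controls lie near the added 0.5 FPKM, which understates the MLg change, and the difference ran from −0.52 to 0.31 over the alternatives. Its neighbour on chromosome 9, Adamts8, was at most 0.202 FPKM in any library.

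Adamts1, an early-response protease that cuts versican, was the most abundant ADAMTS gene of NIH-3T3 and fell. It had 100.3, 148 and 119 FPKM in NIH-3T3 SHHN libraries, against 324, 274 and 309 FPKM in NIH-3T3 control libraries (−1.31, SE 0.15, adjusted p = 1.88e-05). For MLg the values were 68.9, 73.3 and 66.3 FPKM with SHHN, against 80.4, 106 and 112 FPKM in control (−0.50, SE 0.15, adjusted p = 0.0306). The MLg call ended with the replicate block (0.0529), without any of the 3 MLg SHHN libraries (0.0817, 0.0554 and 0.106) and without MLg control replicate 2 (0.113) or 3 (0.107). The difference of −0.81 passed (adjusted p = 0.0258), but not when SHHN replicate 1 (0.0550) or control replicate 3 (0.0561) of NIH-3T3, or SHHN replicate 1 (0.0527) or 2 (0.0624) or control replicate 1 (0.0606) of MLg, was left out.

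Adamts5, the main aggrecan-cutting enzyme of mouse cartilage, lies next to Adamts1 on chromosome 16. It had 30.5, 38.3 and 34.7 FPKM in NIH-3T3 SHHN libraries, against 68.7, 38.8 and 70.9 FPKM in NIH-3T3 control libraries (−0.73, SE 0.22, adjusted p = 0.0220). Control replicate 2 was close to the SHHN libraries. It was no longer called when SHHN replicate 1 (0.0807) or control replicate 1 (0.0795) or 3 (0.0950) was left out, or with 6 libraries per fit (0.0819). In MLg, Adamts5 was at 33.9 ± 0.229 FPKM (SD, n = 3) with SHHN and 36.8 ± 10.1 FPKM in control and was not called. Versican (Vcan), a large proteoglycan that several of these enzymes cut, rose in MLg, at 145 FPKM with SHHN and 48.0 FPKM in control (1.60, adjusted p = 5.23e-05), and was at 115 FPKM with SHHN and 110 FPKM in control of NIH-3T3 (adjusted p = 0.870).

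Adamts10, Adamts6 and Adamts7 were called higher in NIH-3T3. Adamts10, which binds fibrillin microfibrils, had 35.0, 25.8 and 23.8 FPKM in NIH-3T3 SHHN libraries, against 14.5, 13.7 and 10.5 FPKM in NIH-3T3 control libraries (1.09, SE 0.15, adjusted p = 1.06e-04). In MLg it had 20.4, 18.2 and 17.6 FPKM with SHHN, against 19.8, 21.2 and 18.2 FPKM in control, with overlap. The difference between the lines was 1.16 (SE 0.22, adjusted p = 0.00332).

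Adamts6, a close relative of Adamts10, had 15.5, 17.6 and 15.4 FPKM in NIH-3T3 SHHN libraries, against 9.80, 4.57 and 9.45 FPKM in NIH-3T3 control libraries (1.05, SE 0.22, adjusted p = 0.00269). Adamts7, which cuts cartilage oligomeric matrix protein, had 17.1, 20.8 and 18.6 FPKM in NIH-3T3 SHHN libraries, against 10.1, 9.27 and 7.92 FPKM in NIH-3T3 control libraries (1.01, SE 0.20, adjusted p = 0.00142). Both were separate between the groups of NIH-3T3, and neither was called in MLg. Adamts6 was also higher in every MLg SHHN library, with 6.29, 6.68 and 7.18 FPKM, against 4.64, 4.07 and 5.75 FPKM in MLg control libraries (0.45, SE 0.22, adjusted p = 0.182), and passed when control replicate 2 of NIH-3T3 was left out (0.0187). Adamts12 had 12.7, 17.0 and 8.34 FPKM in NIH-3T3 SHHN libraries, against 21.8, 10.0 and 19.7 FPKM in NIH-3T3 control libraries, with overlap (−0.40, SE 0.30, adjusted p = 0.334). In MLg, Adamts12 had 9.45, 8.39 and 8.76 FPKM with SHHN, against 6.20, 3.38 and 5.61 FPKM in control, without overlap (0.79, SE 0.30, adjusted p = 0.0732; 0.0269 with 6 libraries per fit). Tbc1d2b, on the opposite strand of Adamts7 with shared exon positions, fell in NIH-3T3 (−0.43, adjusted p = 0.0148). Differences between the lines did not pass for Adamts6 (adjusted p = 0.238) or Adamts7 (0.0541), though that of Adamts7 passed with the replicate block (0.0311) and without MLg control replicate 3 (0.0219).

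Of 11 tested ADAM genes, 3 were called in NIH-3T3 (27.3%, beside 31.4% of all tested genes) and 1 in MLg (9.09%, beside 22.8%). Adam23, a surface protein without protease function that is best known from neurons, had 16.9, 26.3 and 19.1 FPKM in NIH-3T3 SHHN libraries, against 59.2, 69.5 and 79.9 FPKM in NIH-3T3 control libraries (−1.74, SE 0.17, adjusted p = 4.47e-06). In MLg it had 4.34, 5.26 and 4.73 FPKM with SHHN, against 4.25, 5.65 and 5.95 FPKM in control, with overlap, and the effects differed (−1.61, SE 0.25, adjusted p = 8.08e-04). Adam19 had 16.6, 15.2 and 13.8 FPKM in MLg SHHN libraries, against 29.4, 35.9 and 39.9 FPKM in MLg control libraries (−1.17, SE 0.15, adjusted p = 6.34e-05). In NIH-3T3 its groups overlapped, at 27.4, 26.4 and 21.8 FPKM with SHHN and 35.3, 24.9 and 32.2 FPKM in control (adjusted p = 0.197; 0.0420 without NIH-3T3 control replicate 2). The difference of Adam19 was 0.90 (SE 0.22, adjusted p = 0.0148).

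The other ADAM calls in NIH-3T3 were near the threshold. Adam15, which binds integrins, rose (0.54, adjusted p = 0.0113), with 50.6 to 72.8 FPKM with SHHN and 37.2 to 46.4 FPKM in control, but not without SHHN replicate 3 (0.0513), control replicate 3 (0.0523) or with 6 libraries per fit (0.0585). Adam12, known as meltrin alpha, fell (−0.73, adjusted p = 0.0223), with 3.29 to 6.75 FPKM with SHHN and 7.21 to 9.19 FPKM in control, but not without SHHN replicate 1 (0.0974), control replicate 1 (0.0613) or 3 (0.0726), or with 6 libraries per fit (0.0945). Its change in MLg was −0.61 (adjusted p = 0.0619) and passed when SHHN replicate 1 (0.0231) or 2 (0.0413) or control replicate 2 (0.0498) of NIH-3T3, or control replicate 2 of MLg (0.0287), was left out. It also passed with 6 libraries per fit (0.0372), and after median-ratio scaling (0.0383) or quantile normalization (0.0198). The main sheddases Adam10 and Adam17 and the widely expressed Adam9 were not called in either line, with 95% intervals inside −0.46 to 0.32 for all 3 genes.

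In a list of 11 maturation and partner genes of ADAM10 and ADAM17, 10 were tested. In NIH-3T3, 4 rose and 2 fell (60%, beside 31.4% of all tested genes; median 0.42), and in MLg 2 rose and 0 fell (20%, beside 22.8%; median 0.0068). Rhbdf2, an inactive rhomboid that carries ADAM17 to the surface, was at 8.31 FPKM with SHHN and 1.78 FPKM in control of NIH-3T3 (1.96, SE 0.18, adjusted p = 2.27e-06), and at 25.7 FPKM with SHHN and 6.52 FPKM in control of MLg (1.94, SE 0.18, adjusted p = 3.69e-06). Tspan33, a tetraspanin partner of ADAM10, was at 12.4 FPKM with SHHN and 0.328 FPKM in control of NIH-3T3 (3.87, SE 0.25), was tested only through the group where it is high, and stayed below 0.1 FPKM on average in MLg. Sh3pxd2a, a podosome scaffold that binds ADAM proteins, was at 179 FPKM with SHHN and 69.1 FPKM in control of MLg (1.37, SE 0.17, adjusted p = 4.24e-05). The genes that fell in NIH-3T3 were Sh3pxd2b, a related scaffold, at 17.0 FPKM with SHHN and 46.6 FPKM in control (−1.42, SE 0.16, adjusted p = 1.38e-05), and the tetraspanin Tspan14, at 23.8 FPKM with SHHN and 29.8 FPKM in control (−0.32, SE 0.11, adjusted p = 0.0418).

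Of 25 listed substrates of ADAM shedding, 18 were tested, of which 3 rose and 7 fell in NIH-3T3 (55.6%, median −0.21), and 2 rose and 9 fell in MLg (61.1%, median −0.47). Over all tested genes, 31.4% were called in NIH-3T3 (16.6% higher and 14.8% lower) and 22.8% in MLg (12.8% higher and 10.0% lower). The adhesion molecule Vcam1 was at 8.87 FPKM with SHHN and 56.6 FPKM in control of NIH-3T3 (−2.60, adjusted p = 7.81e-09), and the ligand Nrg1 at 3.06 FPKM with SHHN and 11.4 FPKM in control (−1.75, adjusted p = 5.35e-07). In MLg, the hyaluronan receptor Cd44 was at 70.8 FPKM with SHHN and 14.3 FPKM in control (2.28, adjusted p = 5.77e-07), and the chemokine Cx3cl1 at 4.98 FPKM with SHHN and 21.8 FPKM in control (−2.02, adjusted p = 1.37e-06). Of 17 listed inhibitors, activators and clearance genes, 10 were tested, of which 2 rose and 2 fell in NIH-3T3 (40%, median −0.094) and 1 rose and 3 fell in MLg (40%, median −0.20), beside 31.4% and 22.8% of all tested genes. The gene of this list that rose in MLg was Cd44, which is counted in both lists. The plasminogen activators Plau (−1.86 and −1.47) and Plat (−1.13 and −1.02) fell in both lines, and Reck, a membrane inhibitor of metalloproteinases, was not called in either.

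Of 19 listed ADAMTS-like genes and ADAMTS substrates, 12 were tested, of which 3 rose and 3 fell in NIH-3T3 (50%, median 0.070) and 4 rose and 2 fell in MLg (50%, median 0.18), beside 31.4% and 22.8% of all tested genes. Thsd4, an ADAMTS-like protein of microfibrils, was at 2.88 FPKM with SHHN and 0.0106 FPKM in control of MLg (2.72, SE 0.17), and entered the test through those SHHN libraries and 1 of NIH-3T3. Adamtsl5 was at 36.5 FPKM with SHHN and 20.1 FPKM in control of NIH-3T3 (0.86, SE 0.14, adjusted p = 3.26e-04). Adamtsl3 fell in MLg, at 1.62 FPKM with SHHN and 4.51 FPKM in control (−1.22, SE 0.16, adjusted p = 5.25e-05).

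Summed over all members of a class, ADAMTS levels were 277, 353 and 292 FPKM in NIH-3T3 SHHN libraries, against 594, 469 and 547 FPKM in NIH-3T3 control libraries. In MLg they were 303, 307 and 279 FPKM with SHHN, against 407, 443 and 450 FPKM in control. The groups were separate in both lines. Mmp sums were 507, 599 and 593 FPKM in NIH-3T3 SHHN libraries, against 780, 732 and 683 FPKM in NIH-3T3 control libraries, and 820, 777 and 765 FPKM in MLg SHHN libraries, against 1094, 968 and 878 FPKM in MLg control libraries. ADAM sums were 194, 225 and 220 FPKM in NIH-3T3 SHHN libraries, against 259, 242 and 283 FPKM in NIH-3T3 control libraries, and 194, 195 and 203 FPKM in MLg SHHN libraries, against 212, 234 and 274 FPKM in MLg control libraries. The Mmp and ADAM sums were also separate in both lines, narrowly for ADAM in MLg. The sums were not scaled between libraries, whose FPKM totals ran from 470218 to 659862, and the part of that spread in the sums was not tested. Timp sums were 656 ± 22.0 FPKM (SD, n = 3) with SHHN and 682 ± 89.5 FPKM in control of NIH-3T3, which overlapped, and 699 ± 30.2 FPKM with SHHN and 798 ± 15.9 FPKM in control of MLg, which did not. These sums rest on few genes: Mmp14 and Mmp2 held 86.9% to 94.7% of the mean Mmp sum of a group, and Timp2 54.5% to 79.8% of the mean Timp sum.

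**Figure D4:**
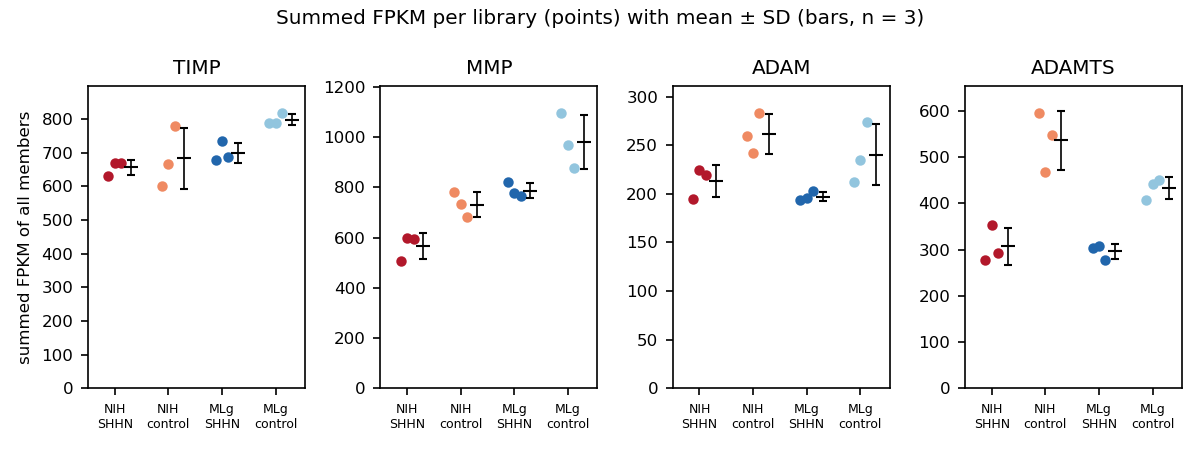
Summed FPKM of all members of the TIMP, MMP, ADAM and ADAMTS classes in each library (points), with the mean and SD of 3 libraries (bars), for NIH-3T3 SHHN, NIH-3T3 control, MLg SHHN and MLg control from left to right. The ADAMTS, MMP and ADAM sums of every SHHN library are below those of every control library of the same line, and the TIMP sums are so in MLg. Sums are not scaled between libraries.

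Without ligand, the lines differed in 29 of the 36 tested members (13 higher and 16 lower in NIH-3T3, 80.6%), where 50.1% of all tested genes were called, 24.4% higher and 25.7% lower. Adam1a and Adam5, both called higher, were tested only through NIH-3T3 libraries, and Mmp3 and Mmp15, both called lower, only through MLg libraries. Those calls are therefore no support for a difference between the lines. Libraries did not overlap for 11 higher and 17 lower members (25.2% and 27.0% of all tested genes). Adam23 was highest in NIH-3T3 relative to MLg, at 69.5 ± 10.4 FPKM in NIH-3T3 control and 5.29 ± 0.906 FPKM in MLg control (SD, n = 3; log2 difference 3.60, SE 0.17, adjusted p = 1.06e-09). Adamts15 (2.16, SE 0.14), Mmp9 (1.79, SE 0.21), Adamts1 (1.61, SE 0.15) and Timp3 (1.30, SE 0.20) were also higher in NIH-3T3. Adamts12, which cuts cartilage oligomeric matrix protein, had 21.8, 10.0 and 19.7 FPKM in NIH-3T3 control libraries, against 6.20, 3.38 and 5.61 FPKM in MLg control libraries (1.63, SE 0.30, adjusted p = 4.16e-04). None of these groups overlapped.

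Mmp3 was lowest in NIH-3T3 relative to MLg (−3.72, SE 0.23). It was tested only through MLg libraries, where it is high, so its call is no support for a difference. With no filter on low values the adjusted p was 3.16e-07. Mmp28 had 1.14, 1.24 and 0.837 FPKM in NIH-3T3 control libraries, against 4.58, 5.55 and 6.17 FPKM in MLg control libraries (−1.92, SE 0.15, adjusted p = 2.02e-07). Mmp16 had 0.804, 0.615 and 0.591 FPKM in NIH-3T3 control libraries, against 3.20, 2.90 and 4.18 FPKM in MLg control libraries (−1.74, SE 0.17, adjusted p = 1.85e-06). The sheddase Adam10 had 31.0, 23.3 and 36.4 FPKM in NIH-3T3 control libraries, against 70.6, 75.5 and 106 FPKM in MLg control libraries (−1.46, SE 0.17, adjusted p = 7.99e-06). Of the 4 tested membrane-type genes all were called lower in NIH-3T3, as were 25.7% of all tested genes. Mmp15 was tested only through MLg libraries, where it is high, so its call is no support. Mmp14 was lower by the least (−0.32, adjusted p = 0.0339). That call was lost when control replicate 2 (0.0640) or 3 (0.129) of NIH-3T3 or 1 (0.124) or 2 (0.0914) of MLg was left out, and with 6 libraries per fit (0.104).

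**Figure D5:**
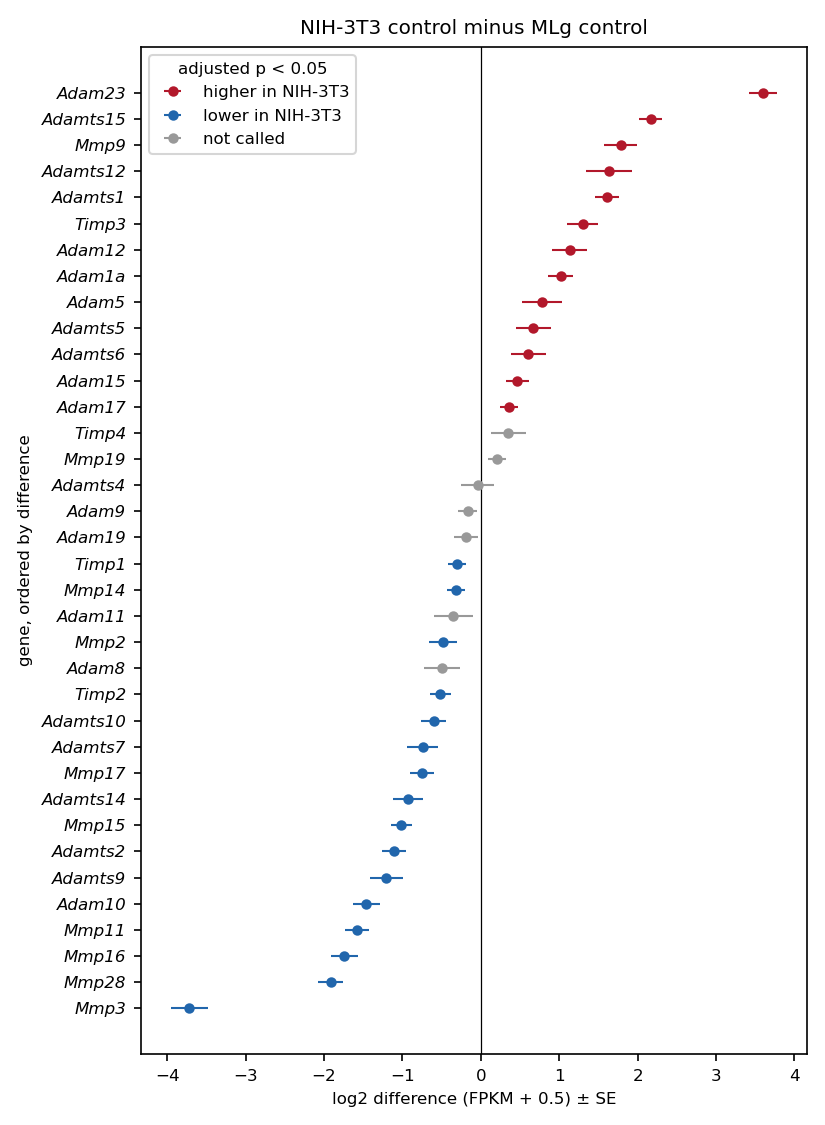
Log2 difference (FPKM + 0.5) between NIH-3T3 control and MLg control with its standard error for the 36 tested members, ordered by the difference and coloured by the limma call. Adam23 lies at 3.60 and Mmp3 at −3.72, the 2 ends of the order.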

How the data were processed

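The authors deposited FPKM values. Per the submitters' processing notes, bcl2fastq, TopHat2 2.0.12 and Cufflinks 2.2.1 were used with mm10; the annotation, any strand setting and any scaling between libraries are not given in the sources used here. Each column name gave its line, treatment and number, and 1 entry without values was left out. FPKM totals ran from 470218 to 659862 per library and do not measure depth. With a tolerance of 0.1, at most 24.5% to 32.5% of low values per library were whole multiples of a step, the best of many steps tried. Arbitrary values give 20% for a step fixed in advance, which is not the share for the best of many. Counts were not recovered, so depth is unknown and no counting interval is given.

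Log2(FPKM + 0.5) was fitted in limma 3.58.1 (R 4.3.3) with 4 group means over all 12 libraries and a variance trend, two-sided, adjusted over the 12379 genes tested. The steps were tested on simulated data. Alternatives were leaving out each library, the replicate block, 6 libraries per fit (1 line at a time), median-ratio scaling or quantile normalization, no filter or one of 1 FPKM, and a pseudocount of 0.1 or 1. Same-numbered SHHN and control libraries of MLg had residuals that correlated across genes at 0.132, 0.157 and 0.241, so their numbers were read as pairs. Those of NIH-3T3 did not. Same-numbered control libraries of NIH-3T3 and MLg correlated at −0.0719, 0.445 and 0.395, so the numbers may bear on the control comparison too. The main p-values leave the replicate numbers out, and the block is therefore given beside results it changes.

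Members and lists were chosen with earlier results of these data known. Values in every library are given for the 10 called members with the largest change in each line, 4 differences between lines, 5 highest and 5 lowest of the control comparison (each with at least 1 FPKM in 1 group), all Timp genes and Mmp3. Adam12, Adam15, Adamts5, Adamts4 and other members outside this rule, and some list genes, were named for their role or after their values were seen. All 79 members were found in GENCODE M21, whose mm10 positions are printed. Promoters are RefSeq windows for 49 members; protein sequences were not used here.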

Additional observations from a re-analysis of the deposited data

Results flagged for a closer look

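For 12 of the 36 tested members, the effect of SHHN differed between NIH-3T3 and MLg by the test of the difference itself (limma, adjusted over all tested genes), where 13.4% of all tested genes did. Differences are NIH-3T3 minus MLg on the log2 scale. Below 0 were Mmp9 (−2.23), Timp4 (−2.09), Timp3 (−1.76), Adam23 (−1.61), Mmp19 (−1.53), Adamts1 (−0.81) and Adamts2 (−0.80). Above 0 were Mmp3 (2.82), Adamts10 (1.16), Adam19 (0.90), Mmp11 (0.81) and Adam15 (0.72). Timp4 was tested only through the MLg SHHN libraries, where it is high, so its call is no support. Mmp3 was tested only through MLg libraries and was listed at 0 in 5 of the 6 NIH-3T3 libraries, so its call is no support either. The Adam15 difference (adjusted p = 0.0311) did not pass with the replicate block (0.0526). It also failed when SHHN replicate 2 (0.0739) or 3 (0.0684) or control replicate 3 (0.0779) of NIH-3T3, or SHHN replicate 2 (0.0671) or 3 (0.0772) or control replicate 1 (0.0502) or 2 (0.0846) of MLg, was left out.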

How the results depend on the processing

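No called result turned its direction under the alternatives run. Results that were not called did cross 0, among them Mmp9 in MLg (−0.22 to 0.25), the Adamts15 difference (−0.52 to 0.31) and Timp2 in NIH-3T3 (−0.31 to 0.0041). With all libraries kept, counts of called members stayed within 1.5 times those reported, apart from 2 higher in MLg with a filter of 1 FPKM, under which Mmp17 and Timp4 were not tested. Leaving out 1 library at a time gave 5 to 6 higher and 6 to 12 lower members in NIH-3T3, 4 to 6 and 7 to 11 in MLg, 3 to 6 and 5 to 9 for the difference between lines (3 without SHHN replicate 3 of NIH-3T3 or SHHN replicate 2 or 3 of MLg), and 9 to 14 and 13 to 16 for the control lines. The replicate block gave 6 higher and 9 lower in NIH-3T3, 4 and 9 in MLg, 5 and 6 for the difference, and 13 and 17 for the control lines. In NIH-3T3 the same-numbered libraries correlated at −0.00070, −0.10 and 0.027. With the block, Adamts4 was called in MLg (0.0408) and Adam8 between the control lines (0.0440), and the changes it made to Adamts1, Adamts2, Adamts7 and Adam15 stand beside those results. Quantile normalization and median-ratio scaling moved the median of all genes by less than 0.1. Depth is unknown, so low members such as Mmp17 and Timp4 have no counting error.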

Other observations

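A list of 12 other zinc metalloproteases of the astacin and membrane types had 8 tested genes. In NIH-3T3, 1 rose and 3 fell (50%, beside 31.4% of all tested genes), and in MLg 2 rose and 3 fell (62.5%, beside 22.8%). Bmp1, the procollagen C-proteinase, fell in both lines, at 90.1 FPKM with SHHN and 124 FPKM in control of NIH-3T3 (−0.45, adjusted p = 0.0191), and at 48.1 FPKM with SHHN and 78.5 FPKM in control of MLg (−0.70, adjusted p = 0.00139). Phex, a peptidase best known from bone, was at 0.637 FPKM with SHHN and 7.39 FPKM in control of NIH-3T3 (−2.78, adjusted p = 9.91e-08). Anpep, an aminopeptidase of the cell surface, moved in opposite directions: it was at 20.2 FPKM with SHHN and 40.8 FPKM in control of NIH-3T3 (−1.01, adjusted p = 1.99e-04), and at 2.57 FPKM with SHHN and 0.447 FPKM in control of MLg (1.70, adjusted p = 2.61e-06). Ace, the angiotensin-converting enzyme, was at 0.557 FPKM with SHHN and 0.0279 FPKM in control of MLg (1.00, adjusted p = 4.08e-05).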
